A study of Mus musculus with 3 samples.

Results

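Bmp4, the Id genes and other parts of the bone morphogenetic protein (BMP) pathway were followed in mouse embryonic stem cells of the E14tg2a line that carried the genotype Fgf4 -/- in every group. The members were 10 genes chosen by symbol out of the 32285 genes listed in the files: the ligand gene Bmp4, the receptor gene Bmpr1a, the inhibitor genes Bambi and Smad6, the Id genes Id1, Id2, Id3 and Id4, and the homeobox genes Msx1 and Msx2. All 10 were found, each under 1 identifier. The cells had been seeded in medium with LIF and then spent 24 h in N2B27, a serum-free medium, with heparin and Chiron, an inhibitor of the kinase GSK3, and with FGF4 at 0, 5 or 50 ng/ml. Whether the mutant line is 1 clone was not stated. Each dose was 1 droplet library, so no test between doses was possible. "Higher" and "lower" describe these libraries, and every interval is a 95% interval for counting error only.

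BMP ligands bind paired receptor kinases, among them BMPR1A, which phosphorylate SMAD1 and SMAD5. With SMAD4 these factors switch on target genes, of which the Id genes are the best known. ID proteins carry a helix-loop-helix domain without a DNA-binding region, and they hold partner transcription factors away from DNA. In mouse embryonic stem cells in serum-free medium, BMP4 acting through Id genes is known to keep cells from neural differentiation alongside LIF, while FGF and ERK signalling moves cells out of the naive state.

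The libraries held 373, 874 and 975 cell barcodes at 0, 5 and 50 ng/ml, with 42726514, 75184072 and 81409975 unique molecular identifiers (UMIs, each counted as 1 captured transcript). No barcode was shared between libraries. The 10 embryonic stem cell markers checked all reached 5 CPM (UMIs of a gene scaled to an equal library total) at every dose. Summed over 8 genes each, primitive endoderm markers stood at 3.67 to 6.03 CPM and fibroblast markers at 3.57 to 3.79 CPM, with Col3a1 and Postn at 0 in every library. Of the endoderm markers, Gata6 had 15, 5 and 178 UMIs, and the 178 at 50 ng/ml lay in 25 cells, 50 of them in 1 cell. At 50 over 0 ng/ml Amn was 1.50-fold higher, and Foxa2 and Dab2 were 4.13-fold and 1.78-fold lower. Trophectoderm markers summed to 10.9, 18.3 and 21.9 CPM with rising dose, but not together. At 50 over 0 ng/ml Cdx2 (3.09, 8.70 and 11.4 CPM), Ascl2 and Tfap2a were higher, Krt7 2.34-fold and Gata3 3.05-fold lower, Krt18 level, and Elf5 at 0 with FGF4. Primitive streak markers, 6 genes, summed to 12.3, 18.8 and 23.9 CPM, with T 4.33-fold and Eomes 4.01-fold higher at 50 than at 0 ng/ml and Gsc 11.4-fold and Wnt3 5.42-fold lower. These sums moved with Bmp4, Id1 and Id3, and their part in those results was not tested. Barcodes with over 10% mitochondrial UMIs numbered 12, 133 and 153, and an algorithm for doublets marked 9, 36 and 29. Fgf4 itself had 2208, 1874 and 1664 UMIs, but a 3′ tag can lie outside the deleted part, so these counts do not check the genotype. Levels below are CPM over all barcodes of a library, not divided by length, and are compared between doses and not between genes.

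Bmp4 and 2 of the 4 Id genes were several-fold higher with FGF4 than without, and 1 Id gene was several-fold lower. Bmp4 and Id3 stood near 4-fold and 3-fold above the library without ligand at 5 ng/ml, and Id4 was 6.62-fold lower at 50 ng/ml. The receptor gene Bmpr1a and the inhibitor genes Bambi and Smad6 stayed within 1.5-fold at every dose. Promoters of Bmp4, Id3 and Id4 are shown, which are 3 of the 4 members past 2-fold and differ in direction. The RefSeq table for GRCm38.p6, the assembly also called mm10, held a window of 250 bases before to 50 bases after the start for 8 of the 10 members, all but Id1 and Bambi. Its starts are RefSeq's, and the Id3 window lies wholly inside the GENCODE span of the gene given further on. Capitals mark the letters GTCT on either strand, the short box that SMAD proteins bind, and GGCGCC, a GC-rich box found in BMP-responsive enhancers.
Bmp4: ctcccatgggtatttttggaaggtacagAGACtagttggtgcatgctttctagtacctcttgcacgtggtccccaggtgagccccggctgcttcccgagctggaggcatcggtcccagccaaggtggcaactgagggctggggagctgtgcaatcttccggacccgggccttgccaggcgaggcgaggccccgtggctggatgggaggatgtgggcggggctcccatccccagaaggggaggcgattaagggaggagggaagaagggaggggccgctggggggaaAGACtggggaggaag
Id3: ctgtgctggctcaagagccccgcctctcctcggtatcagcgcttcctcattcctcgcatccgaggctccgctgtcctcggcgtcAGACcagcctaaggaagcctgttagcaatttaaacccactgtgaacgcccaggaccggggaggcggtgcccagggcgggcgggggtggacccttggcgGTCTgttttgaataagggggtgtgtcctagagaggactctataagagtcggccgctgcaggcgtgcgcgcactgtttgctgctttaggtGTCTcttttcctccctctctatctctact
Id4: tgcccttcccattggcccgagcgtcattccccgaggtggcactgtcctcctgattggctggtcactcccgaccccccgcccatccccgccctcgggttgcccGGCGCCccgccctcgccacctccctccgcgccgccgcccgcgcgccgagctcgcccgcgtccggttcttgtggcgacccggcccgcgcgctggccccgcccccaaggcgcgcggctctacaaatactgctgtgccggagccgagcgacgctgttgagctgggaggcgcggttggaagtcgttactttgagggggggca

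These windows lie at chr14:46390620-46390919 (minus strand) for Bmp4, chr4:136143572-136143871 (plus strand) for Id3 and chr13:48260866-48261165 (plus strand) for Id4. GTCT occurred 2 times in the Bmp4 window, 3 times in the Id3 window and 0 times in the Id4 window, and 88% of 27025 promoter windows hold it at least once, with a median of 2 matches. GGCGCC occurred 1 time in the Id4 window and 0 times in the Bmp4 and Id3 windows, against 12% of all windows. Of the 8 member windows 3 held it, those of Id2, Id4 and Bmpr1a. Id2 and Id4 were lower at 50 than at 0 ng/ml, and Bmpr1a was level. The Id2 and Bmpr1a windows also lie wholly inside the GENCODE spans of their genes. Bmp4 alone of these 3 held the ETS core CCGGAAG, 1 time, which 9.12% of windows hold. E boxes (CANNTG on either strand), the sites of helix-loop-helix factors, numbered 3 in the Bmp4 window and 0 in the Id3 and Id4 windows, with 72.1% of all windows holding at least 1. The Egr1-type box GCGGGGGCG, held by 2.92% of windows, was in none of the 3. A match is a description of letters and does not show binding.

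Bmp4, the ligand gene (ENSMUSG00000021835, chromosome 14, 46383520 to 46390669, minus strand), had 190, 1330 and 2177 UMIs at 0, 5 and 50 ng/ml FGF4. Its level was 4.45 CPM (3.84 to 5.13) at 0 ng/ml, 17.7 CPM (16.8 to 18.7) at 5 ng/ml and 26.7 CPM (25.6 to 27.9) at 50 ng/ml. The 3 intervals did not overlap, and the order of levels followed the dose. Bmp4 was 3.98-fold higher (3.42 to 4.66) at 5 ng/ml and 6.01-fold higher (5.18 to 7.01) at 50 ng/ml than at 0 ng/ml, and 1.51-fold higher (1.41 to 1.62) at 50 than at 5 ng/ml. Over all scalings and cell sets tried, the ratio was 3.11 to 4.04 at 5 ng/ml and 5.03 to 6.19 at 50 ng/ml. Cells with at least 1 Bmp4 UMI made up 29.5%, 46.6% and 53.0% of barcodes.

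Bmpr1a, the receptor gene (ENSMUSG00000021796, chromosome 14, 34410734 to 34503341, minus strand), had 25.0 CPM (23.5 to 26.5), 25.8 CPM (24.6 to 26.9) and 24.5 CPM (23.4 to 25.6) at 0, 5 and 50 ng/ml. These intervals overlapped, and the ratio of 50 over 0 ng/ml was 0.979 (0.909 to 1.06). Counting error therefore allowed at most a 1.10-fold lower level at the high dose.

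The inhibitor genes differed little between doses. Bambi, which encodes a decoy receptor without a kinase (ENSMUSG00000024232, chromosome 18, 3507923 to 3516404, plus strand), stood at 8.96 CPM (8.09 to 9.91), 10.2 CPM (9.52 to 10.98) and 10.1 CPM (9.44 to 10.8). Smad6, an inhibitory SMAD (ENSMUSG00000036867, chromosome 9, 63953076 to 64022059, minus strand), stood at 2.53 CPM (2.07 to 3.05), 2.59 CPM (2.24 to 2.98) and 2.42 CPM (2.09 to 2.78). Ratios of 50 over 0 ng/ml were 1.13 (0.999 to 1.28) for Bambi and 0.957 (0.753 to 1.22) for Smad6. The Bambi ratio of 5 over 0 ng/ml, 1.14 (1.01 to 1.29), had a counting interval just above 1.

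Id3 (ENSMUSG00000007872, chromosome 4, 136143497 to 136145755, plus strand) had 654, 3834 and 5840 UMIs. Its level was 15.3 CPM (14.2 to 16.5), 51.0 CPM (49.4 to 52.6) and 71.7 CPM (69.9 to 73.6) with rising dose. Id3 was 3.33-fold higher (3.07 to 3.63) at 5 ng/ml and 4.69-fold higher (4.32 to 5.09) at 50 ng/ml than without FGF4. Id1 (ENSMUSG00000042745, chromosome 2, 152736251 to 152737410, plus strand) had 95, 457 and 895 UMIs, or 2.22 CPM (1.80 to 2.72), 6.08 CPM (5.53 to 6.66) and 10.99 CPM (10.3 to 11.7). That put Id1 2.73-fold higher (2.19 to 3.45) at 5 ng/ml and 4.94-fold higher (4.00 to 6.18) at 50 ng/ml. For Id1 and Id3 no 2 doses had overlapping intervals. Between 5 and 50 ng/ml Id1 was 1.81-fold higher (1.61 to 2.03) and Id3 1.41-fold higher (1.35 to 1.47) at the high dose.

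Id4 (ENSMUSG00000021379, chromosome 13, 48261228 to 48266026, plus strand) went the opposite way. It had 514, 266 and 148 UMIs, or 12.0 CPM (11.01 to 13.1), 3.54 CPM (3.13 to 3.99) and 1.82 CPM (1.54 to 2.14). Compared with the library without ligand, Id4 was lower 3.40-fold (2.93 to 3.96) with the low dose and 6.62-fold (5.50 to 8.0) with the high dose. The high dose was in turn 1.95-fold lower (1.59 to 2.40) than the low dose. Summed over 4 genes, neuroectoderm markers stood at 124.8, 41.3 and 37.6 CPM, and their part in the Id4 levels was not tested. Tubb3 (107.2, 31.4 and 27.6 CPM) and Nes (11.4, 3.03 and 3.12 CPM) were lower with FGF4, while Pax6 (5.85, 6.41 and 6.36 CPM) and Sox1 (0.351, 0.426 and 0.516 CPM) were not. Id2 (ENSMUSG00000020644, chromosome 12, 25093799 to 25097140, minus strand) had only 113, 143 and 135 UMIs and stood at 2.65 CPM (2.18 to 3.18), 1.90 CPM (1.60 to 2.24) and 1.66 CPM (1.39 to 1.963). It was 1.60-fold lower (1.23 to 2.06) at 50 than at 0 ng/ml, and its levels at 5 and 50 ng/ml overlapped. The 4 Id genes thus did not share a direction: Id1 and Id3 were higher, Id4 lower, and Id2 lower by a smaller ratio on few UMIs.

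Msx1 and Msx2, homeobox genes known as BMP targets in other embryonic tissues, were at low levels. Msx2 (ENSMUSG00000021469, chromosome 13, 53466884 to 53473074, minus strand) had 125, 285 and 260 UMIs, or 2.93, 3.79 and 3.19 CPM. Its ratio was 1.30 (1.05 to 1.61) for 5 over 0 ng/ml and 1.09 (0.879 to 1.36) for 50 over 0 ng/ml, so its levels did not follow the dose order. Msx1 (ENSMUSG00000048450, chromosome 5, 37820485 to 37824583, minus strand) had 18, 22 and 31 UMIs in whole libraries, and 11 of the 22 at 5 ng/ml came from 1 cell. No difference in Msx1 was detectable at this depth, with a ratio of 50 over 0 ng/ml of 0.904 (0.490 to 1.72).

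**Figure D1:**
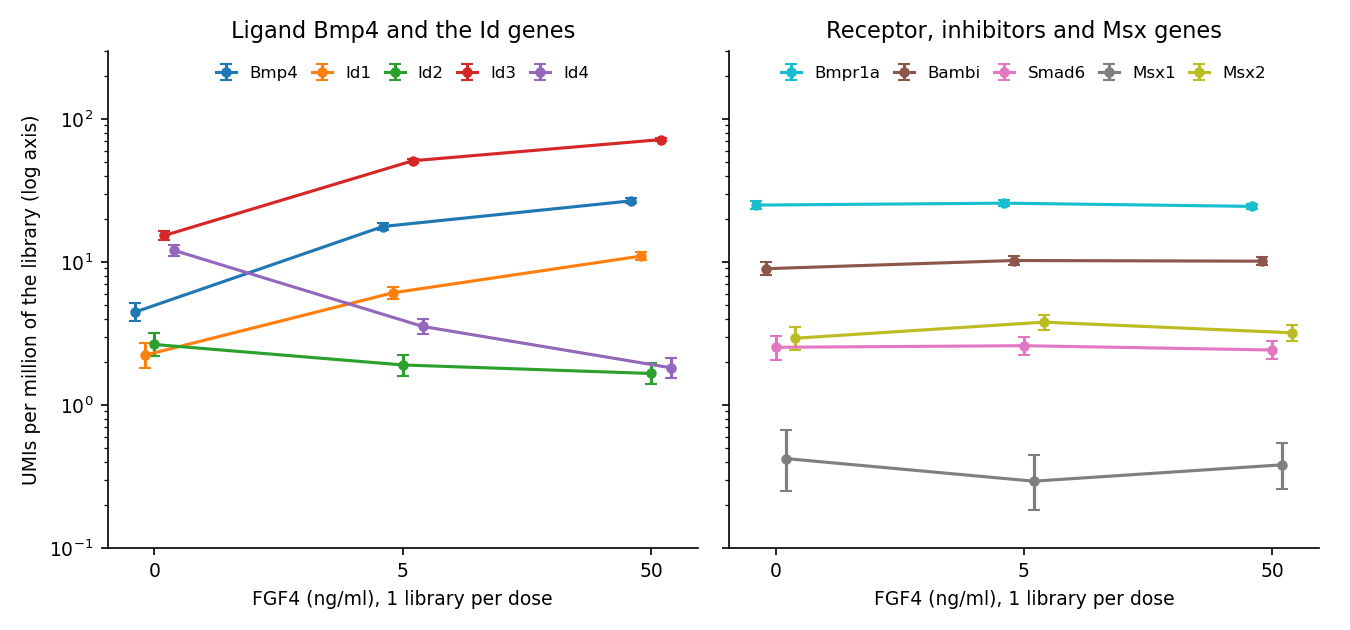
CPM (log axis) at 0, 5 and 50 ng/ml FGF4 for the 10 genes, as points with 95% Poisson intervals and 1 library per dose. Bmp4, Id1 and Id3 climb with dose, Id4 descends to 1.82 CPM, and Bmpr1a stays at 24.5 to 25.8 CPM.

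Of the 10 members, 6 reached 5 CPM in at least 1 library, and Id2, Smad6, Msx1 and Msx2 did not. At 5 ng/ml 3 of these 6 (Bmp4, Id1 and Id3) were at least 2-fold higher and 1 (Id4) at least 2-fold lower than at 0 ng/ml, where 2.26% and 2.15% of the 9501 genes with that level were called higher and lower, 4.41% in all. The same 4 genes were past 2-fold at 50 ng/ml, where 2.63% of genes were called higher and 3.44% lower, 6.07% in all. The median log2 ratio of the 6 members was 0.82 at 5 ng/ml and 1.202 at 50 ng/ml, beside 0.02 and -0.01 over all genes with that level. Bmp4, Id1 and Id3 ranked 49, 63 and 68 from the highest ratio of 50 over 0 ng/ml, and Id4 ranked 22 from the lowest. Both comparisons share the library at 0 ng/ml. Bmp4 and Id1 reached 5 CPM only with FGF4, and Id4 only without it. The members were also chosen with earlier results of these data known. The counts, medians and ranks here and for 50 over 5 ng/ml therefore describe the members and do not test them against other genes.

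Between the high and the low dose, 0 of the 6 members were 2-fold apart, and 0.379% of genes were called in either direction, 0.211% higher and 0.168% lower. Id1 nevertheless ranked 27 from the highest of 9501 ratios of 50 over 5 ng/ml, Bmp4 43 and Id3 54, and Id4 ranked 18 from the lowest. With doublets left out, Id4 passed the limit, at 0.495 of its level at 5 ng/ml.

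**Figure D2:**
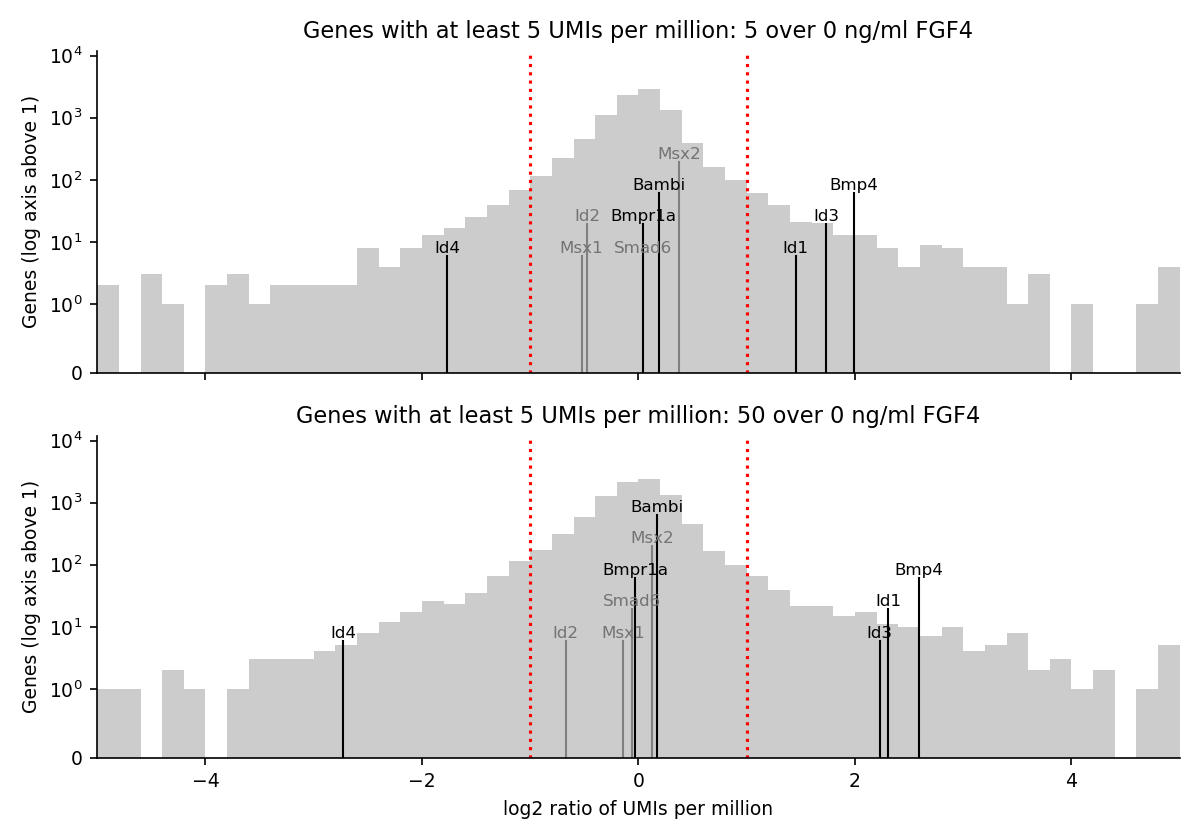
Grey bars count genes with at least 5 CPM by their log2 ratio of 5 over 0 ng/ml (top) and 50 over 0 ng/ml (bottom), on an axis that is logarithmic above 1, and lines mark the 10 genes, with those under 5 CPM in grey. Dotted lines stand at 2-fold, and Bmp4, Id1, Id3 and Id4 lie outside them at either dose.

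The rest of the pathway was read from a list of 57 other genes, of which 25 reached 5 CPM. At 5 ng/ml 4 of the 25 were at least 2-fold higher and 0 lower than at 0 ng/ml, beside 2.26% and 2.15% of all genes with that level. At 50 ng/ml 3 were higher and 3 lower, beside 2.63% and 3.44% of all such genes. Their median log2 ratio was -0.04 at 5 ng/ml and -0.11 at 50 ng/ml. Of the genes counted, Zfp423, Fst and Cdx2 reached 5 CPM only with FGF4, and Bmp7 and Acvr1 only without it. The list, like the members, was chosen with earlier results of these data known. Its counts and medians, here and under other settings, therefore describe the list and do not test it against other genes. Among other ligands, Bmp7 had 8.36, 4.95 and 3.697 CPM and was lower 2.26-fold (1.93 to 2.64) with the high dose than without FGF4. Gdf3, a TGF-beta family ligand of pluripotent cells, stood at 109.8, 106.8 and 104.0 CPM. Of the ligand genes under 5 CPM, Bmp8b had 12, 69 and 99 UMIs and was 4.33-fold higher (2.37 to 8.66) at 50 than at 0 ng/ml. In that comparison the intervals of Bmp6 (0.885 to 2.63) and Bmp8a (0.674 to 1.44) spanned equal levels.

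The 6 receptor genes of the list that reached 5 CPM were level or lower at 50 than at 0 ng/ml. Of the others, the co-receptor gene Hjv was higher, at 0.702, 1.73 and 1.65 CPM, or 2.34-fold (1.57 to 3.61). The rest of those under 5 CPM were lower at 50 than at 0 ng/ml. Bmpr1b was 5.36-fold lower (2.97 to 10.2) on 45, 21 and 16 UMIs, Acvrl1 2.70-fold (1.215 to 6.19) and Rgma 1.22-fold. Acvr1, a type I receptor that also phosphorylates SMAD1 and SMAD5, had 7.21, 4.19 and 3.44 CPM and was 2.096-fold lower (1.78 to 2.47) at 50 than at 0 ng/ml. The co-receptor gene Rgmb was 1.43-fold lower (1.19 to 1.71), and the type II receptor genes Acvr2a and Acvr2b were 1.25-fold and 1.21-fold lower. Among the SMADs and their regulators, Smad1 had 24.5, 20.5 and 19.5 CPM and the inhibitory Smad7 94.7, 73.2 and 70.0 CPM. The SMAD corepressor gene Ski was 1.53-fold lower (1.45 to 1.63) at 50 ng/ml. Zfp423, which encodes a zinc-finger partner of SMADs in BMP responses, differed most, at 1.94, 9.82 and 12.8 CPM, or 6.58-fold higher (5.26 to 8.33). In the same comparison Skil, Ppm1a and Smad4 were 1.195-fold, 1.14-fold and 1.065-fold higher, and Smurf1 and Ube2o 1.12-fold and 1.08-fold lower. The intervals of Smad5, Smurf2 and Lemd3 spanned equal levels.

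Of the secreted inhibitors and modulators 3 of 14 were measured. Fst, which encodes follistatin, a binder of activins and some BMPs, had 1.73, 10.9 and 12.4 CPM and was 7.17-fold higher (5.66 to 9.21) at 50 than at 0 ng/ml. Its relative Fstl1 had 39.0, 78.4 and 71.1 CPM, and Twsg1, a BMP-binding modulator, 14.8, 17.7 and 13.9 CPM. Nog, which encodes noggin, had 2, 17 and 22 UMIs and was not measured by that limit. Other target genes went either way, with Cdx2 3.71-fold higher (3.09 to 4.48) and Tbx3, which is also a naive pluripotency gene, 2.47-fold lower (2.37 to 2.58) at 50 ng/ml.

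Partners that ID proteins are known to bind or restrain differed less, apart from 1. The E-protein genes Tcf3 and Tcf12 stood at 65.4, 61.2 and 61.8 CPM and at 26.7, 25.5 and 23.1 CPM, and Tcf4 at 74.2, 55.9 and 49.3 CPM. Tcf15, a helix-loop-helix gene linked to the exit from the naive state, had 18.0, 62.1 and 94.8 CPM. It was 5.26-fold higher (4.88 to 5.67) at 50 than at 0 ng/ml, so 1 of the 4 partners was past 2-fold, where 6.07% of all genes with at least 5 CPM were.

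Levels in single cells were read in the 359, 706 and 798 cells that had at most 10% mitochondrial UMIs and a depth within 3-fold of the library median, each thinned at random to 30000 UMIs. No cell type without these genes was at hand to measure free RNA, so a share of cells with a UMI is not a share of expressing cells. Bmp4 was found in 13.6%, 32.4% and 40.2% of thinned cells at 0, 5 and 50 ng/ml, at a mean of 0.153, 0.550 and 0.782 UMIs. Cells with 3 or more Bmp4 UMIs numbered 1, 36 and 77. Independent counting at the same mean would give 14.2%, 42.3% and 54.3% of cells with a UMI, so with FGF4 fewer cells held a Bmp4 UMI than that, while without FGF4 the share was close to it.

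Id3 was found in 27.9%, 61.8% and 74.7% of thinned cells, against 37.4%, 77.9% and 88.4% for independent counting. Id1 was found in 6.13%, 13.9% and 21.1% of cells. Id4 was found in 25.9%, 10.9% and 4.89% of cells, close to the 27.8%, 12.2% and 5.25% of independent counting. The Fano factor, the variance over the mean, is 1 for independent counting. For Bmp4 it was 1.18, 2.05 and 2.13 with rising dose, for Id3 1.86, 2.45 and 2.29, and for Id1 1.48, 1.55 and 1.87. The median over genes of at least 5 CPM was 1.12, 1.12 and 1.11, and 95.5% of those genes had a lower Fano factor than Bmp4 at 5 ng/ml.

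Bmpr1a and Bambi were spread among cells much as independent counting would spread them, with Fano factors of 0.979 to 1.11 and 1.00 to 1.10. Smad6 and Msx2 had Fano factors of 0.943 to 1.04 and 0.999 to 1.13. Id2 had Fano factors of 1.93, 2.81 and 1.90, although it was found in only 5.57%, 4.82% and 4.01% of cells, and 1 cell held 9 of its thinned UMIs at 5 ng/ml. The Fano factor climbs with the mean for any unevenly expressed gene, so the values at unequal levels are descriptions and not a ranking of noise.

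**Figure D3:**
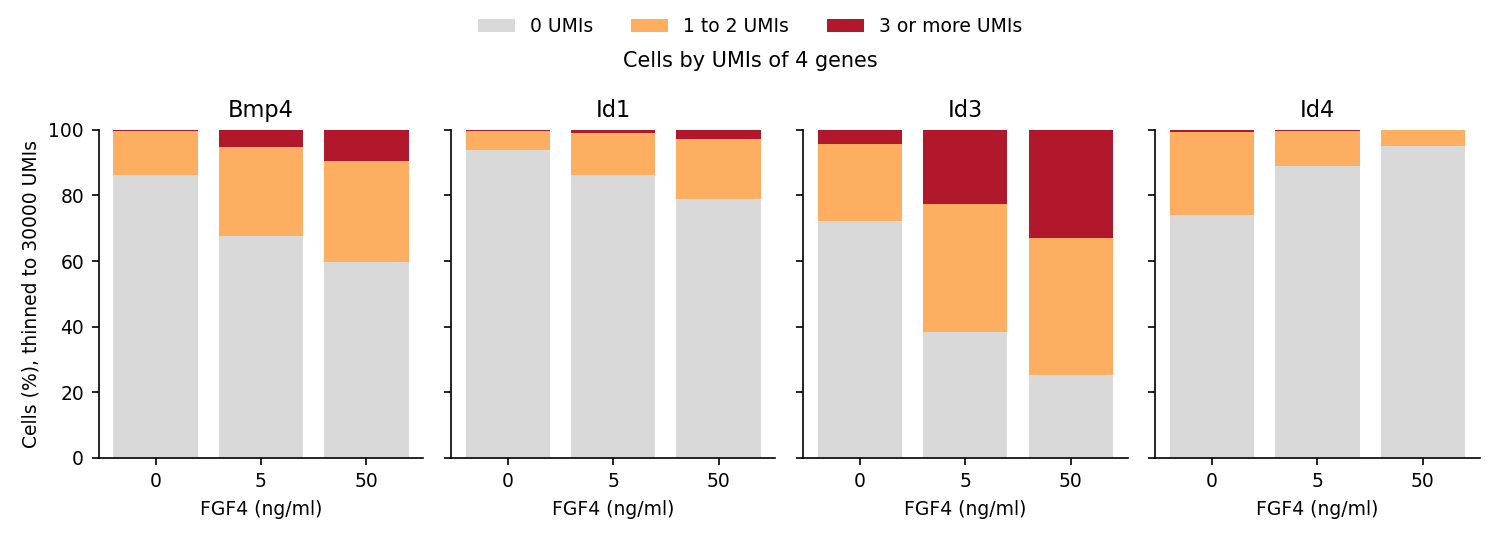
Stacked bars give the percentage of cells with 0, 1 to 2 and 3 or more UMIs of Bmp4, Id1, Id3 and Id4 at each FGF4 dose, after thinning each of the 359, 706 and 798 cells to 30000 UMIs. Cells with Id3 make up 74.7% at 50 ng/ml, while cells with Id4 shrink to 4.89%.

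Whether Id levels followed Bmp4 among cells was read within each library, so that dose did not enter. Spearman's rho of Bmp4 with Id3 was 0.0548, 0.114 and 0.154 at 0, 5 and 50 ng/ml. Bmp4 with Id1 gave 0.00101, 0.0585 and 0.182. Values with Id2 were 0.0418, -0.0507 and -0.0573, and with Id4 0.0117, 0.0728 and 0.0989. These are weak relations in sparse counts of cells that share a library, and they carry no p-value. The BMP signal that reached a cell was not measured, and Bmp4 RNA in the same cell does not stand for it.

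Beside every gene of at least 20 CPM in the same library, the largest of these values lay towards the edge. At 50 ng/ml the middle 95% of rho between Bmp4 and 5345 such genes ran from -0.0836 to 0.104, and 14 genes had a higher rho with Bmp4 than Id1 did, while 30 had a higher rho than Id3. At 5 ng/ml 86 of 5432 genes lay above Id3 and 595 above Id1. Without FGF4 762 of 5425 genes lay above Id3 and 2371 above Id1. Read from the other side, 0 of 5346 genes had a higher rho with Id1 at 50 ng/ml than Bmp4 had. At 5 ng/ml 570 of 5432 genes did, and without FGF4 2616 of 5425.

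These values moved with the settings, a second thinning at the same depth included, so the part of depth alone is not shown. At 60000 UMIs, with 343, 668 and 728 cells, rho of Bmp4 with Id3 was 0.151, 0.192 and 0.164 and with Id1 -0.0287, 0.0886 and 0.283. As shares of each cell's UMIs without thinning, Id3 gave 0.183, 0.198 and 0.139 and Id1 -0.00234, 0.159 and 0.281. At 7000 UMIs the Id3 value at 5 ng/ml was -0.0262. A second random thinning to 30000 UMIs gave 0.0913 for Id3 and 0.284 for Id1 at 50 ng/ml. The rho of Id1 with Bmp4 at 50 ng/ml thus ranged from 0.121 to 0.284 over all settings tried, and that of Id3 from 0.0428 to 0.165.

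The size of the relation was clearer from cells set apart by their Bmp4 UMIs. At 50 ng/ml, Id1 averaged 0.948 UMIs (0.743 to 1.19) in the 77 cells with 3 or more Bmp4 UMIs, 0.307 (0.242 to 0.385) in the 244 cells with 1 to 2, and 0.233 (0.191 to 0.280) in the 477 cells with 0. The ratio between the outer bins was 4.07 (2.99 to 5.52), and at 5 ng/ml, over 36 and 477 cells, it was 3.15 (1.80 to 5.24). Id3 averaged 3.29 UMIs (2.89 to 3.72), 2.34 (2.15 to 2.54) and 1.88 (1.76 to 2.003) in the same 50 ng/ml bins, an outer ratio of 1.75 (1.52 to 2.02), which a second random thinning put at 1.50. At 5 ng/ml the outer ratio for Id3 was 1.97 (1.58 to 2.43). Poisson intervals are too narrow here, because Id1 and Id3 vary more between cells than counting alone gives.

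Id3 also differed between doses among cells without a Bmp4 UMI. In these 310, 477 and 477 cells, Id3 averaged 0.448 UMIs (0.377 to 0.529), 1.40 (1.29 to 1.51) and 1.88 (1.76 to 2.003) at 0, 5 and 50 ng/ml. Id1 averaged 0.0774 (0.0496 to 0.115), 0.168 (0.133 to 0.209) and 0.233 (0.191 to 0.280), and Id4 0.323 (0.263 to 0.392), 0.115 (0.0869 to 0.150) and 0.0398 (0.0240 to 0.0622). A cell with 0 UMIs at this depth may still have held Bmp4 transcripts. Id2 had 1 UMI in the 77 cells with 3 or more Bmp4 UMIs at 50 ng/ml and 31 UMIs in the 477 cells with 0. Per cell these were 0.0130 (0.000329 to 0.0724) and 0.0650 (0.0442 to 0.09225) UMIs, with overlapping intervals.

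**Figure D4:**
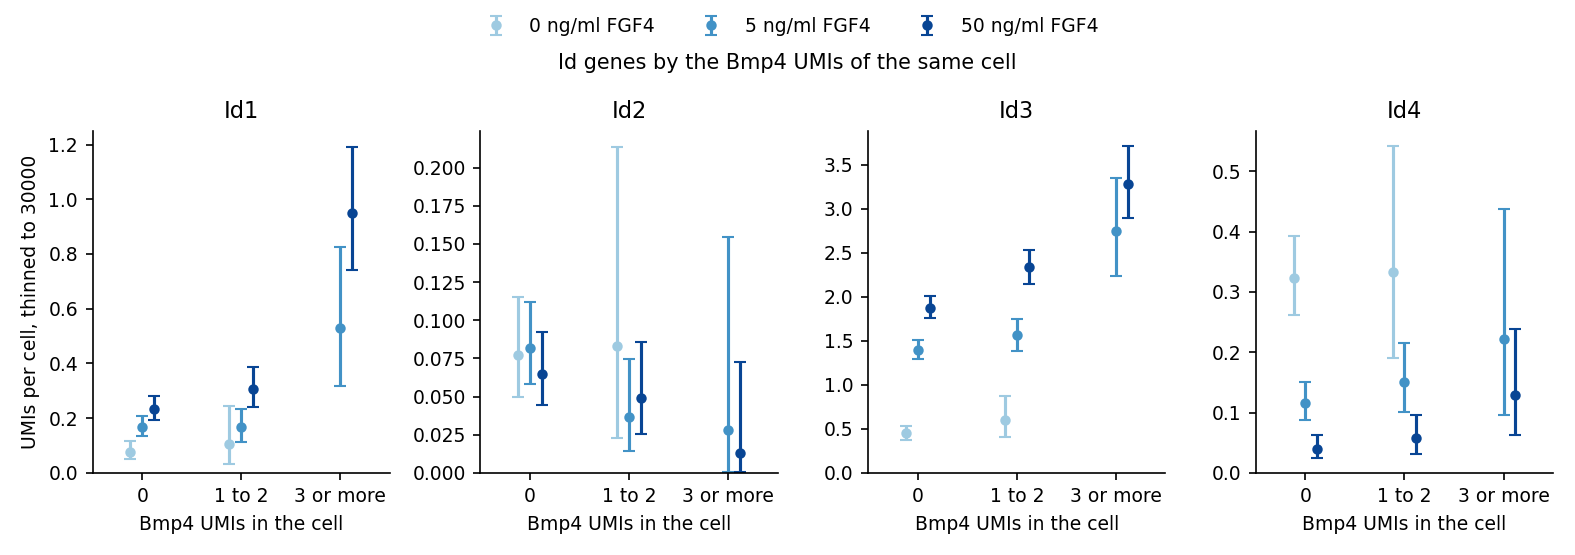
UMIs per cell of Id1, Id2, Id3 and Id4 after thinning to 30000 UMIs, in cells with 0, 1 to 2 and 3 or more Bmp4 UMIs at each FGF4 dose, with 95% Poisson intervals and bins of fewer than 20 cells left out. Id1 stands at 0.948 in the highest Bmp4 bin at 50 ng/ml and Id3 is higher with FGF4 in both bins that hold 20 or more cells at 0 ng/ml.

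The Id genes were only weakly related to each other. Id1 and Id3 had rho of 0.0769, 0.0961 and 0.0687 at 0, 5 and 50 ng/ml, and Id3 and Id4 -0.0702, -0.0222 and 0.0211. For Id1 and Id4 the values were 0.03785, 0.0152 and 0.0887. For Id2 and Id4 they were -0.00594, -0.0372 and 0.104, with 5 cells holding both at 50 ng/ml. Id1 and Id2 had -0.0620, -0.03305 and 0.0143, and Id2 and Id3 0.0526, -0.0199 and 0.00495. At 50 ng/ml 137 cells held both Id1 and Id3, where 125.5 would if the genes were unrelated. Bmp4 and Id1 were found together in 90 cells there, where 67.6 would if unrelated. With the receptor gene Bmpr1a, Bmp4 had rho of 0.0227, 0.00611 and -0.0656.

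At 5 and 50 ng/ml the strongest of the relations to gene lists was that of Bmp4 with naive pluripotency genes. Its rho with the summed UMIs of 10 naive pluripotency genes (such as Nanog, Esrrb and Tfcp2l1) was 0.0515, 0.226 and 0.277 at 0, 5 and 50 ng/ml, and 0.151, 0.279 and 0.340 at 60000 UMIs. Spearman's rho with 8 formative genes (such as Otx2 and Dnmt3b) was 0.0284, -0.0340 and 0.0147. Between libraries the order was the other way. Bmp4 was 6.01-fold higher at 50 than at 0 ng/ml, while the naive list averaged 51.4, 42.8 and 37.1 UMIs per thinned cell by dose. The naive genes were not alike in this. Nanog was 2.72-fold lower (2.64 to 2.80) at 50 than at 0 ng/ml, but Zfp42 was 1.07-fold higher (1.048 to 1.085). Tbx3 is in the naive list, and without it the 50 ng/ml value was 0.275.

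Id1 and Id3 had rho of 0.151 and 0.170 with the naive list at 50 ng/ml. With the naive list held constant, rho of Bmp4 with Id1 at 50 ng/ml was 0.148 and with Id3 0.113. Id3 also had rho of 0.150 and 0.139 with 8 FGF and ERK targets (such as Spry4, Dusp6 and Etv4) at 5 and 50 ng/ml, against 0.00333 without FGF4. Bmp4 had 0.148, -0.0117 and 0.127 with the same targets at 0, 5 and 50 ng/ml. Counts were sparser without FGF4. These targets averaged 1.99, 7.10 and 9.69 UMIs per cell, Id3 0.468, 1.51 and 2.15 and Bmp4 0.153, 0.550 and 0.782. What that did to rho was not tested. With the summed G2/M genes, Bmp4 had rho of 0.0225, 0.161 and 0.112 and Id1 0.0645, 0.0839 and 0.139. With the summed S-phase genes, Bmp4 had rho of -0.1615, -0.11 and -0.1005 and Id1 -0.01275, 0.113 and 0.00849. Bmp4 and the full UMI count of the cell had rho of -0.0802, 0.0961 and 0.116. With that count and the mitochondrial share held constant, rho of Bmp4 at 50 ng/ml was 0.178 with Id1 and 0.147 with Id3.

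**Figure D5:**
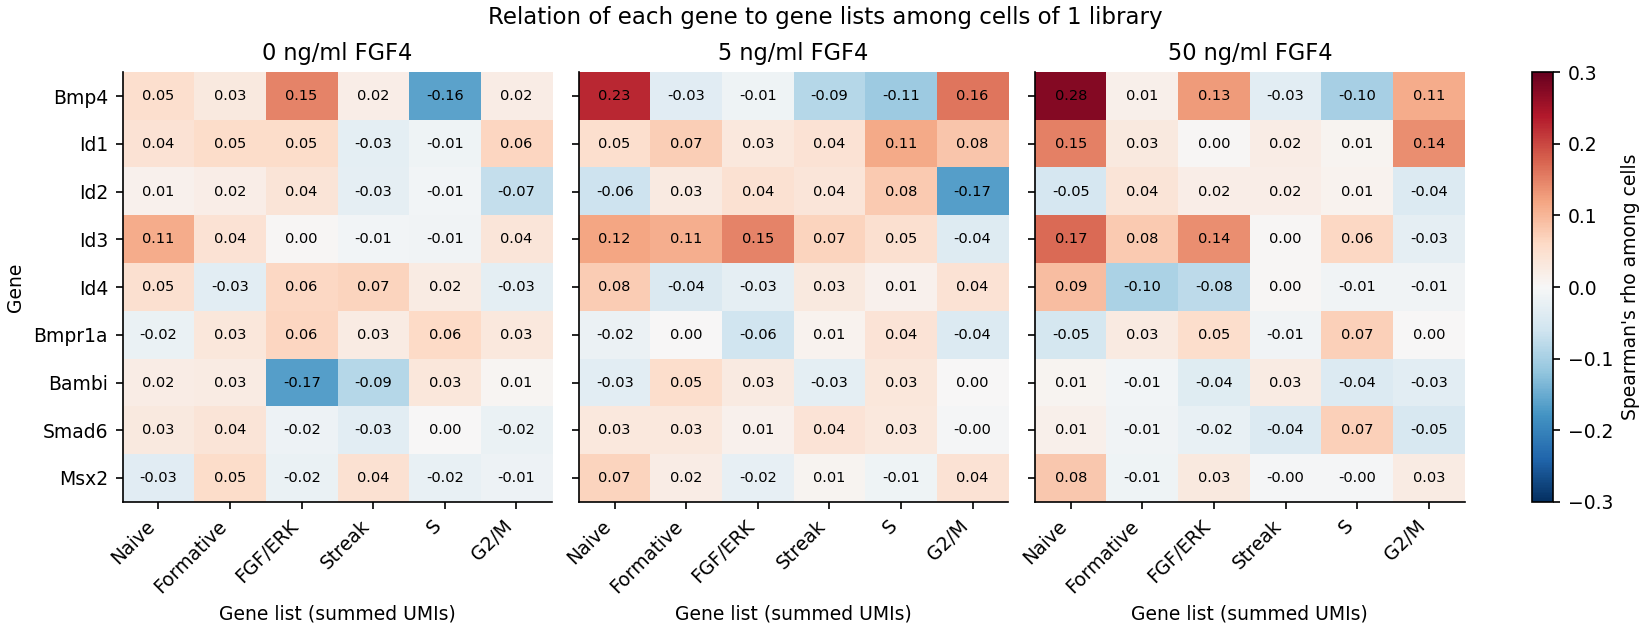
Spearman's rho among the thinned cells of each library between 9 of the genes (rows, Msx1 left out as nearly absent) and the summed UMIs of 6 gene lists (columns), at 0, 5 and 50 ng/ml FGF4. Bmp4 has the deepest colour with the naive list, at 0.226 and 0.277 with FGF4.

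Genes whose levels among cells were most like Bmp4 were ranked by their lowest rho over the 3 libraries, out of 4962 genes of at least 20 CPM in each. The first 5 were Baz2b (0.111, 0.129 and 0.105 at 0, 5 and 50 ng/ml), Cd63, Irf2bpl, Arid5b and Tbx3 (0.0920, 0.129 and 0.142). For Id3 they were Ppp1r12a, Nfib, Tcf7l1, L1td1 and Mycn, with a lowest rho of 0.0819 to 0.108. For Id1 they were Ubald2, Nanog, Ube2c, Cenpa and Fzr1, with a lowest rho of 0.0758 to 0.106. Of the members, Bmpr1a alone reached 20 CPM in every library and could have been ranked.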

How the data were processed

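Single-cell RNA was measured in 3 droplet libraries (10x 3′ chemistry, version 3.1), 1 per FGF4 dose. The deposited matrices hold counts of UMIs per gene and cell barcode, per the file headers, and the submitters' processing notes name Cell Ranger 4.0.0 and mm10. How barcodes were chosen as cells is not given in the sources used here.

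UMIs were summed over all barcodes of a library and divided by the library total (CPM). Sums carry exact 95% Poisson intervals, ratios of CPM conditional binomial intervals and shares Clopper-Pearson intervals, all for counting error only. A gene was counted when it had at least 5 CPM in at least 1 library and a ratio of at least 2-fold. Cells with at most 10% mitochondrial UMIs and a depth within 3-fold of the library median were thinned to 30000 UMIs for relations among cells. Doublets were marked with Scrublet in scanpy 1.11.5 and kept, except in an alternative. Python 3.11.15, scipy 1.17.1 and R 4.3.3 were used, with scaling factors from edgeR 4.0.16 and DESeq2 1.42.0. The functions were tested on simulated data. The members and lists were chosen with earlier results of these data known. Named besides the members were up to 4 measured pathway genes per role with the largest log2 ratio of 50 over 0 ng/ml, 4 partners, and the 5 genes most like Bmp4, Id1 and Id3 each. Nanog, Zfp42, Nog, Hjv, further SMADs and their regulators, other pathway genes under 5 CPM and single marker genes were named after their values were seen.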

Additional observations from a re-analysis of the deposited data

How the results depend on the processing

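Of 180 member ratios recomputed under other scalings and cell sets, 178 stayed inside their counting interval. The 2 outside were both of Bmp4, taken as the mean share of UMIs per cell. They were 3.11 for 5 over 0 ng/ml (interval 3.42 to 4.66) and 5.03 for 50 over 0 ng/ml (5.18 to 7.01). Past 2-fold, 1 member (Id4, lower) was counted for 50 over 5 ng/ml without doublets, where 0.410% of all genes were, and 3 of 6 at a limit of 1.5-fold, where 1.31% were. At 20 CPM 2 members were counted at 5 ng/ml and 2 at 50 ng/ml against 0 ng/ml, of 3 measured, where 2.98% and 3.99% of all genes were. Pathway genes counted at 20 CPM were 1 at 5 ng/ml and 1 at 50 ng/ml, of 12. For 5 over 0 ng/ml there were 7 of 31 at 1 CPM and 7 of 25 at 1.5-fold, where 7.58% and 11.2% of all genes were. With no filter there were 12 for 5 over 0, 17 for 50 over 0 and 4 for 50 over 5 ng/ml, of 47, where 16.3%, 18.8% and 7.83% of all genes were. The rho of Bmp4 with Id3 at 5 ng/ml was 0.114 at 30000 UMIs and -0.0262 at 7000 UMIs. The median rho of Bmp4 with Id1, Id2 and Id3 at 50 ng/ml was 0.0455 at 7000 UMIs against 0.154. At 5 ng/ml it was 0.0585, against 0.159 without thinning, 0.141 with all barcodes and 0.133 without doublets. Chosen after seeing the data were the alternatives for bins, single rho values and the naive list. At 7000 UMIs the naive list gave 0.0767 at 5 ng/ml and 0.127 at 50 ng/ml. The Id3 bin ratio at 50 ng/ml was 1.40 at 60000 UMIs, 1.50 with a second seed and 1.44 without doublets. The cause was not tested. No paired analysis was possible because each dose was 1 library, so differences between doses cannot be told apart from differences between libraries.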
